A study of Drosophila melanogaster with 8 samples.

Results

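The histone rows of a gene-level expression table were examined in whole heads of adult Drosophila melanogaster. They were chosen by name: every row whose symbol begins with His1, His2A, His2B, His3 or His4 was taken, and the histamine channel gene HisCl1 was left out. This gave 115 of the 15240 rows, of which 111 were copies of the tandem histone repeat and 4 were the variant genes His3.3A, His3.3B, His4r and His2Av. Collapsing rows with identical values left 9 distinct rows, the 4 variants and 5 patterns among the repeat copies. RNA had been sequenced from the heads of socially naive flies aged 6 days, with many heads pooled into each library. The groups were Bully 25C, CantonS 25C, Bully 19C and CantonS 19C, where Bully is a hyper-aggressive line of Canton-S background, CantonS is the Canton-S strain itself, and 25C or 19C is the temperature at which the flies were raised. All groups share the Canton-S background, and no transgene or drug treatment is named. Each group had 2 libraries, called a and b here as names only. The values are RPKM, reads per kilobase of a gene's length after scaling to the library's size.

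Histones package DNA into nucleosomes: a core of H2A, H2B, H3 and H4, and the linker histone H1. The repeat copies encode the replication-dependent histones, which are made mostly in S phase to package new DNA, and whose mRNAs end in a stem-loop in place of a poly(A) tail. The variant genes lie outside the repeat and are transcribed outside S phase as well, into polyadenylated mRNA. His3.3A and His3.3B encode the same replacement histone, H3.3, which is deposited at transcribed and regulatory chromatin without DNA replication. His4r encodes the same protein as the repeat H4 genes. His2Av encodes H2Av, the single H2A variant of the fly, which serves in the roles of both H2A.Z and H2A.X of mammals. An adult head holds mostly cells that have left the cell cycle, in which replacement histones are the supply for nucleosome turnover.

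Steps between the RPKM values gave effective library sizes of 47.5 to 117.8 M reads. The values of the variants correspond to at least 443 reads per kilobase (His2Av in CantonS 25C a) and at most 26714 (His4r in CantonS 19C b). Head cell markers were present in every library: the rhodopsin gene ninaE reached 8900 RPKM, n-syb 289 RPKM and the glial gene Gs2 274 RPKM. Of 11 testis markers 10 stayed below 1 RPKM in all libraries and 0 were listed at 0 in all of them. Their summed level was 0.687 and 1.07 RPKM in the Bully 25C pair, 0.267 and 0.605 in the CantonS 25C pair, 4.07 and 5.10 in Bully 19C, and 0.678 and 1.31 in CantonS 19C. The 11 follicle cell markers summed to at most 0.957 RPKM and the 10 germline markers to 2.87 RPKM. The summed fat body markers stood at 402 and 439 RPKM in the Bully 25C pair, 383 and 310 in the CantonS 25C pair, 829 and 792 in Bully 19C, and 342 and 418 in CantonS 19C. The summed markers of glia and of hemocytes, the blood cells of the fly, were lowest in CantonS 19C. The 6 glia markers, mostly Gs2, summed to 417 and 413 RPKM in the Bully 25C libraries and 441 and 391 RPKM in CantonS 25C. At 19C they summed to 434 and 440 RPKM in Bully and 334 and 373 RPKM in CantonS. The 7 hemocyte markers summed to 55.1 to 68.9 RPKM in Bully 25C, 51.1 to 63.1 RPKM in CantonS 25C, 62.4 to 65.6 RPKM in Bully 19C, and 43.8 to 46.6 RPKM in CantonS 19C. In Bully at 19C, 2 glia markers (moody and nrv2) rose and 1 (alrm) fell, and 2 hemocyte markers (Hml and nimC1) rose. Other members did not follow the sums. At 19C repo averaged 5.85 RPKM in both lines, and srp 3.94 RPKM in Bully and 3.95 RPKM in CantonS. The hemocyte gene He went the other way, at 0.228 RPKM in Bully 19C and 0.379 RPKM in CantonS 19C. Of both lists, 0 markers were listed at 0 in all libraries. The 6 photoreceptor markers, mostly ninaE, summed to 9237 and 9505 RPKM in Bully 25C and 6214 and 6508 in CantonS 25C. Their sums were 6978 and 6170 RPKM in Bully 19C and 5415 and 7525 in CantonS 19C. The 7 neuron markers, mostly n-syb, summed to 350 and 399 RPKM in Bully 25C and 303 and 303 in CantonS 25C. At 19C they summed to 355 and 327 RPKM in Bully and 320 and 269 in CantonS. The members did not follow these sums. Of the 7, 2 had a higher mean log2 value in Bully at 25C and 3 at 19C. The list medians of the log2 difference were -0.15 and -0.09. CantonS 19C b stood apart in gene length: its genes under 1 kb lay on average 0.41 log2 units above their own means over the libraries, and its genes over 5 kb deviated by -0.35. The part of these cell type and length shifts in the results below was not tested, except that an alternative fit removed the dependence on gene length.

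The repeat copies were almost entirely listed at 0. Of the 111 rows, 104 (93.7%) were at 0 in all libraries, against 697 of the 15125 other rows (4.61%). That covered all 23 rows of His1, the linker histone, all 20 of His2A, all 23 of His2B and all 23 of His3, and 15 of the 22 rows of His4. The 7 His4 rows above 0 were very low. His4:CG33883, His4:CG33889 and His4:CG33905 had the same values, 0.0128 RPKM in Bully 25C a and 0 in Bully 25C b, 0.0321 and 0.0141 in the CantonS 25C libraries, 0.0138 and 0.0159 in Bully 19C, and 0.00442 and 0.0108 in CantonS 19C. The other four, His4:CG33901, His4:CG33903, His4:CG31611 and His4:CG33909, were above 0 in CantonS 25C a alone, at 0.0160, 0.0160, 0.0195 and 0.0880 RPKM. For comparison, 3 reads in a gene of 1 kb were worth 0.0255 to 0.0632 RPKM in these libraries, a limit that covers counting error only. The 7 His4 rows are annotated at 413 bp each in BDGP6. At that length 3 reads are worth more RPKM, so this limit is too low for them. Neither the treatment of reads that match several copies nor the selection for poly(A) is given in the sources used here, so a row at 0 is a listing and not a measure of transcription, and no fold was formed from these rows. No test was read from these rows, whose highest values lie below the pseudocount. The contrast between repeat copies and variants therefore rests on listed values, and the comparisons of lines and temperatures below concern the 4 variants.

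**Figure D1:**
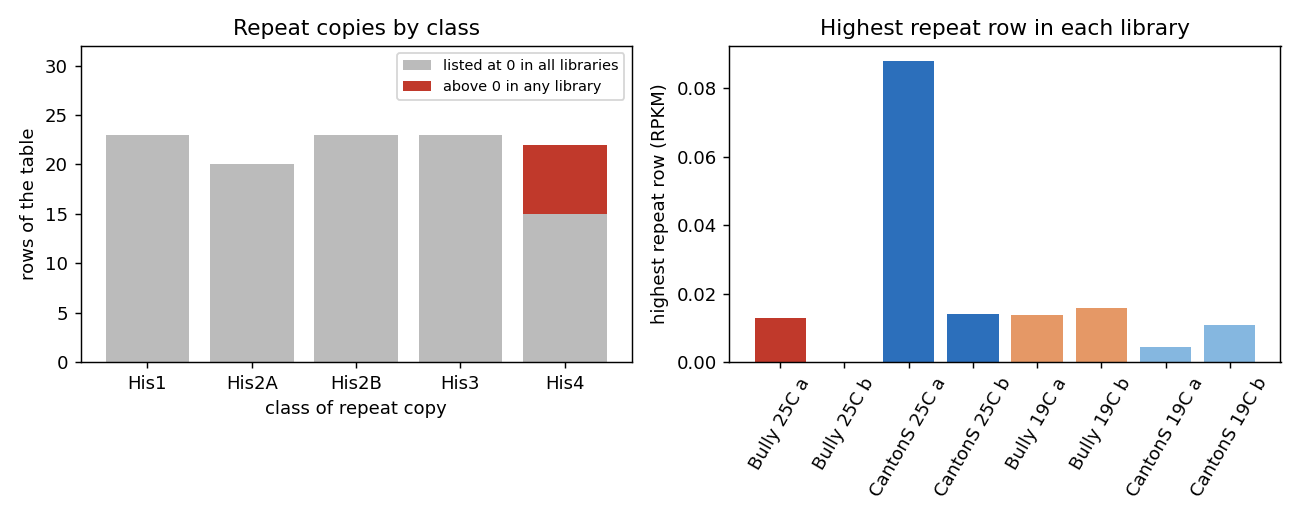
Left, number of repeat rows of each histone class that were listed at 0 in all libraries (grey) or above 0 in any library (red). Right, RPKM of the highest repeat row in each library; the highest, in CantonS 25C a, was 0.0880 RPKM.

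The variants were among the well expressed genes of the head. His4r had a mean of 182 RPKM over the libraries, above 98.8% of all rows, and ranged between 139 and 227 RPKM. His3.3B averaged 133 RPKM, above 98.4% of rows, with a range of 106 to 224 RPKM. His3.3A averaged 20.2 RPKM (above 90.6% of rows, 14.6 to 30.0 RPKM) and His2Av 13.5 RPKM (above 86.5%, 9.32 to 17.6 RPKM). On this scale per length, both His4r and His3.3B lay far above His3.3A and His2Av in every library. His4r was above His3.3B in every library but CantonS 19C a, and their ranges overlapped. His3.3A was above His2Av in every library, by 1.15 to 2.16 times. By group, His4r averaged 206 ± 27.9 RPKM in Bully 25C, 157 ± 26.3 RPKM in CantonS 25C, 158 ± 6.18 RPKM in Bully 19C and 208 ± 26.5 RPKM in CantonS 19C (SD, n = 2 each). His3.3B averaged 121 ± 11.1, 124 ± 10.51, 109 ± 5.14 and 177 ± 66.9 RPKM in the same groups in that order, so its CantonS 19C libraries lay furthest apart. His3.3A averaged 21.6 ± 0.744, 15.7 ± 1.52, 16.2 ± 0.227 and 27.4 ± 3.67 RPKM, and His2Av 15.7 ± 2.69, 10.9 ± 2.27, 13.4 ± 0.696 and 13.8 ± 0.178 RPKM. Neighbours in the order of levels were thus His4r and His3.3B, whose groups overlap, then His3.3A and His2Av, whose ranges over the libraries overlap as well. These are levels of RNA in whole heads, in which fewer cells of a type and less RNA per cell cannot be told apart.

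**Figure D2:**
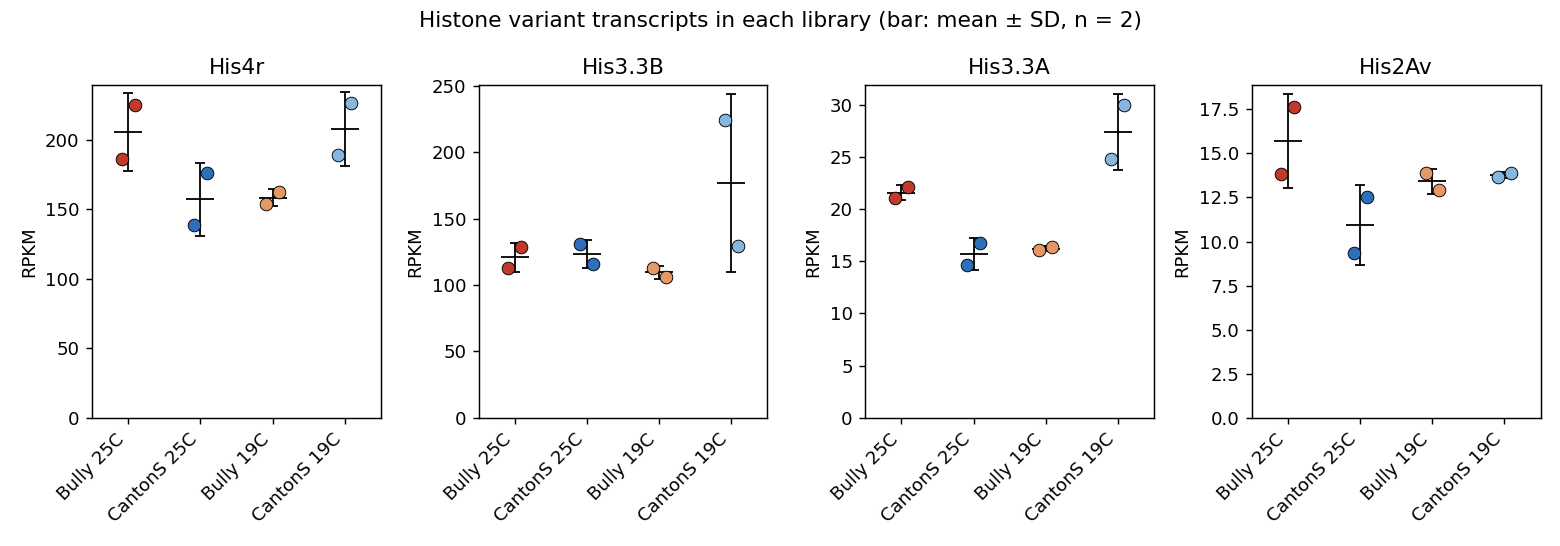
RPKM of His4r, His3.3B, His3.3A and His2Av in each library, with a point per library and a bar for the mean ± SD (n = 2). His3.3A and His4r lie higher in Bully 25C than in CantonS 25C and lower in Bully 19C than in CantonS 19C, and His3.3B stands at 224 RPKM in CantonS 19C a.

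The line comparisons asked which transcripts differ between Bully and CantonS heads at each rearing temperature. At 19C, His3.3A, one of the genes of the replacement histone H3.3, was lower in Bully. It was at 16.1 and 16.4 RPKM in the Bully 19C libraries, against 24.8 and 30.0 RPKM in the CantonS 19C libraries, which do not overlap. The log2 difference was -0.73 (SE 0.14, 95% interval -1.05 to -0.41, adjusted p = 0.0163) by limma on log2(RPKM + 0.5), adjusted by Benjamini-Hochberg over 8480 genes (those averaging 1 RPKM or more), with calls at an adjusted p below 0.05. The annotated 3′ end of His3.3A overlaps CG31918 on the other strand, a row at 0.225 to 1.38 RPKM, and whether counting used strand is not given in the sources used here. The His3.3A call was the single one among the 4 variants at 19C, in a comparison that called 11.5% of the genes tested, 3.44% higher and 8.07% lower in Bully. The call held in every other fit of all 8 libraries and in the fit of the compared groups alone (adjusted p at most 0.0444), and ended when Bully 19C a (adjusted p = 0.120) or Bully 19C b (adjusted p = 0.125) was left out. Once the dependence on gene length was taken out of each library, the difference was smaller, at -0.43 (adjusted p = 0.0277).

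At 25C the order was the other way round. His3.3A was at 21.1 and 22.1 RPKM in Bully 25C, against 14.6 and 16.8 RPKM in CantonS 25C, again without overlap. The log2 difference of 0.45 (SE 0.14, adjusted p = 0.150) did not pass. By limma, 0 of the 4 variants were called at 25C, where 3.03% of all genes were (1.86% higher and 1.17% lower), and 2 of them, His3.3A and His2Av, had an unadjusted p below 0.05, as did 16.9% of all genes. Averaged over temperatures, His3.3A differed by -0.14 between the lines (SE 0.10, adjusted p = 0.452).

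The temperature comparisons asked which transcripts follow rearing temperature within a line. In CantonS, His3.3A was lower at 25C, at 14.6 and 16.8 RPKM, than at 19C, at 24.8 and 30.0 RPKM. The log2 difference was -0.78 (SE 0.14, adjusted p = 0.0389), and 6.42% of the genes tested were called in this comparison, 1.06% as higher and 5.35% as lower. The median of all genes was itself at -0.11 in this comparison and at 0.01 after median-of-ratios rescaling; relative to the deposited median His3.3A stood at -0.67. The call was lost after that rescaling (adjusted p = 0.0574), after quantile normalization (0.0612), without the filter (0.0788), in a fit of the CantonS groups alone (0.148) and with the length trend removed (difference -0.43, adjusted p = 0.0959). Over the fits without a single library, which leave a lone sample in a group, the difference ran from -0.91 to -0.65. The call did not hold in most of them. This comparison and that of the lines at 19C share the CantonS 19C libraries.

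In Bully the libraries of His3.3A were ordered the opposite way, at 21.1 and 22.1 RPKM at 25C against 16.1 and 16.4 RPKM at 19C. The difference of 0.40 (SE 0.14, unadjusted p = 0.0199) had an adjusted p of 1.00, in a comparison that called 0.0236% of genes. The interaction, the line difference at 25C minus that at 19C, was 1.18 for His3.3A (SE 0.20, 95% interval 0.73 to 1.64). Its adjusted p of 0.0921 did not pass either, in a comparison that called 0% of genes. This was the smallest adjusted p of the comparison, shared with the 0.142% of genes that had a larger test statistic. An adjusted p below 0.1 was reached by 280 of the 8480 genes. Over all genes the interaction had a median of 0.12 on the deposited scale and of -0.01 after median-of-ratios rescaling, and His3.3A lay 1.07 above the deposited median. Over the fits without a single library the His3.3A interaction ran from 1.05 to 1.32, the highest value when CantonS 19C a was left out. It was 0.72 (adjusted p = 0.233) with the length trend removed.

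His4r, which encodes the H4 protein from outside the repeat, was ordered in the same way as His3.3A. At 25C it was at 186 and 225 RPKM in Bully, against 139 and 176 RPKM in CantonS (log2 difference 0.39, SE 0.18, adjusted p = 0.333). At 19C it was at 154 and 163 RPKM in Bully, against 189 and 227 RPKM in CantonS (-0.39, SE 0.18, adjusted p = 0.193). The groups did not overlap at either temperature, and neither difference passed. The interaction was 0.77 (SE 0.26, unadjusted p = 0.0166, adjusted p = 0.137), and 0.24 (adjusted p = 0.507) with the length trend removed or 0.25 (adjusted p = 0.428) after quantile normalization. With the length trend removed the line difference at 19C was -0.01 and its groups overlapped. Between 25C and 19C it differed by -0.40 in CantonS (SE 0.18, adjusted p = 0.168) and by 0.37 in Bully (SE 0.18, adjusted p = 1.00). Averaged over temperatures the line difference was 0.00 (SE 0.13, 95% interval -0.30 to 0.30).

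In single comparisons, libraries that did not overlap were seen with Bully higher at 25C in 3 of 4 variants (31.3% of all genes; 20.4% lower), with Bully lower at 19C in 3 (36.9%; 23.1% higher), with 25C lower in CantonS in 3 (37.9%; 17.6% higher) and with 25C higher in Bully in 2 (26.1%; 15.6% lower). The 3 in CantonS were 2 after median-of-ratios rescaling and 1, His3.3A, after quantile normalization or with the length trend removed. The 3 at 19C were 2 in these last fits, and with the length trend removed 1 variant, His2Av, was apart with Bully higher. Libraries apart with Bully higher at 25C and lower at 19C were thus seen in 2 of the 4 variants, His3.3A and His4r, and in 10.6% of all genes tested. Both also had 25C above 19C in Bully and below it in CantonS, as did 6.86% of all genes, but the CantonS libraries of His4r overlapped after quantile normalization and with the length trend removed. The annotated exons of these genes are short, 1002 bp for His3.3A and 796 bp for His4r in the BDGP6 annotation, against 1224 bp for His2Av and 2552 bp for His3.3B. Over the 1314 tested genes under 1 kb, the mean deviation from each gene's own mean was -0.05 and 0.02 log2 units in the Bully 25C pair, -0.21 and -0.03 in the CantonS 25C pair, -0.17 and -0.10 in Bully 19C, and 0.13 and 0.41 in CantonS 19C. The part of gene length in the His3.3A differences was not tested beyond the fit that removed its trend.

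**Figure D3:**
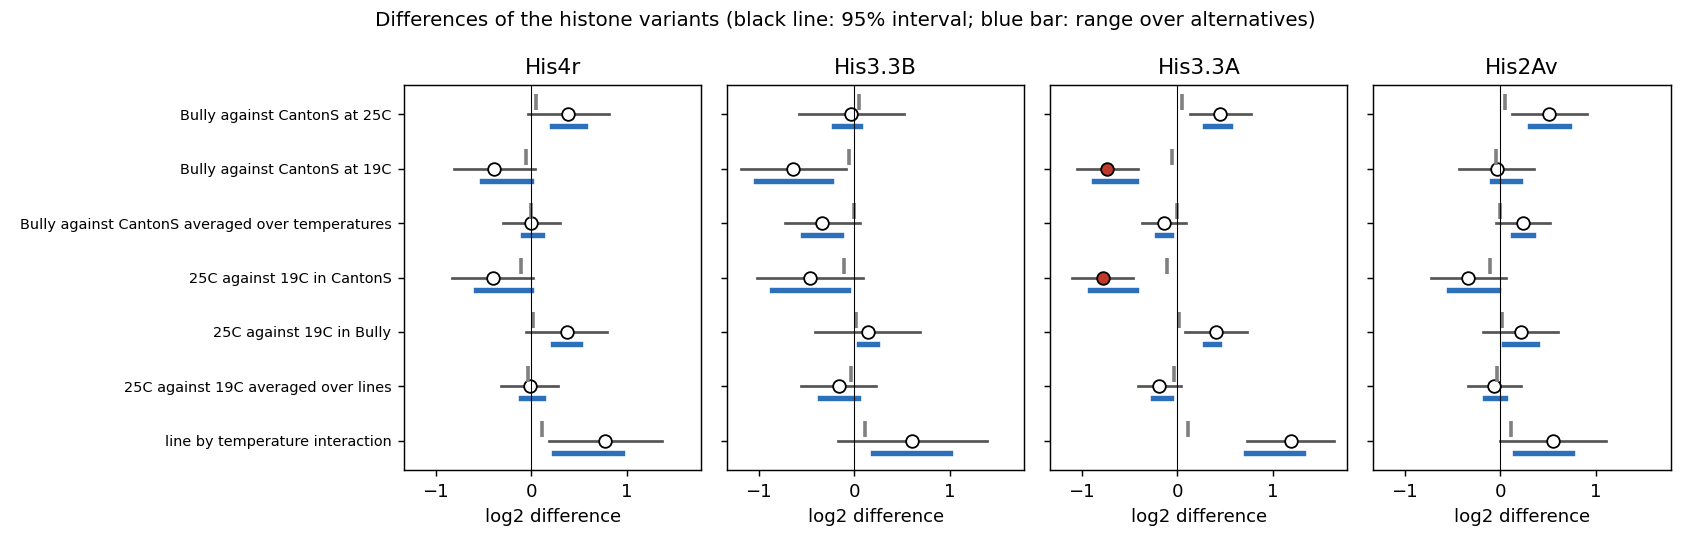
Log2 differences of the 4 variants in the 7 comparisons (points, red where the adjusted p was below 0.05), with the 95% interval (black line), the range over the alternative fits including those without a single library (blue bar) and the median of all tested genes (grey tick). The 2 red points are His3.3A in Bully against CantonS at 19C and in 25C against 19C in CantonS.

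His3.3B, the other H3.3 gene, did not share the difference at 25C. It was at 113 and 129 RPKM in Bully 25C against 131 and 116 RPKM in CantonS 25C, with overlap (log2 difference -0.03, SE 0.24, 95% interval -0.58 to 0.52). At 19C it was at 113 and 106 RPKM in Bully, against 224 and 130 RPKM in CantonS, without overlap on the deposited scale and with overlap after quantile normalization. The difference of -0.64 (SE 0.24, adjusted p = 0.117) did not pass, and it turned on a library of the CantonS pair. Without CantonS 19C b it was -1.03 (adjusted p = 0.0213), and without CantonS 19C a it was -0.24 (adjusted p = 0.298). In the average over temperatures, -0.33 (SE 0.17, adjusted p = 0.286), the value without CantonS 19C b was -0.53 (adjusted p = 0.0254). The temperature difference of His3.3B in CantonS was -0.47 (SE 0.24, adjusted p = 0.216) and in Bully 0.14 (SE 0.24, adjusted p = 1.00).

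The H3.3 genes were in unequal proportion in every library. His3.3B was 5.36 and 5.82 times His3.3A per length in Bully 25C, 8.95 and 6.91 times in CantonS 25C, 7.05 and 6.46 times in Bully 19C, and 9.04 and 4.32 times in CantonS 19C. As a share of the summed H3.3 level His3.3B made up 81.2% to 90.0%. The highest and the lowest ratio both came from CantonS 19C, so the libraries of that group differed more in this ratio than any of the group means.

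**Figure D4:**
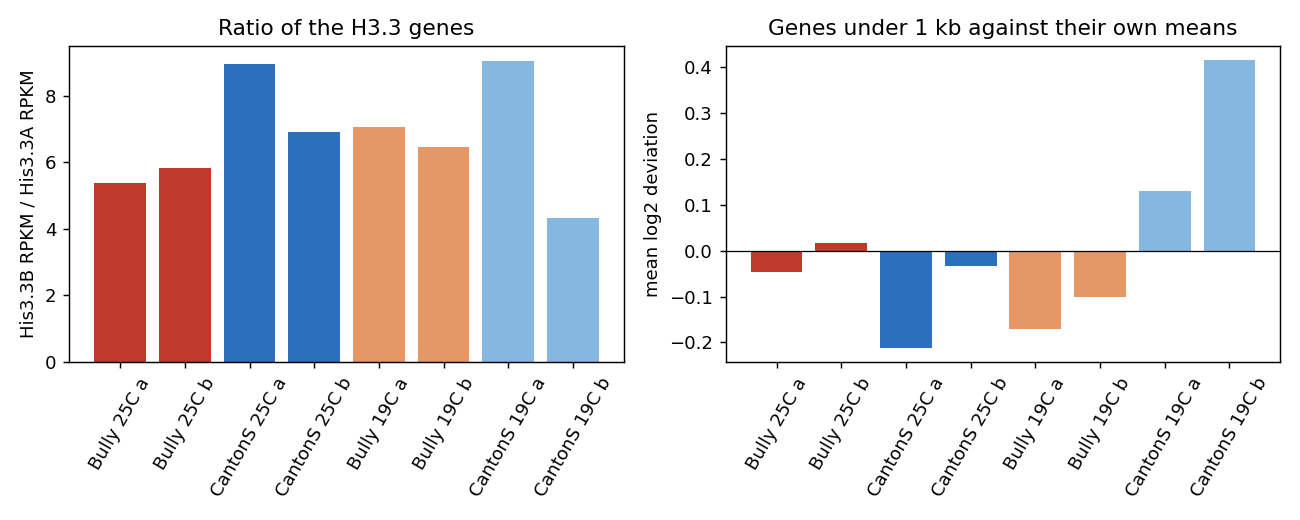
Left, ratio of His3.3B to His3.3A RPKM in each library. Right, mean log2 deviation of the 1314 tested genes under 1 kb from their own means over the libraries. CantonS 19C a and b hold the highest and lowest ratio, 9.04 and 4.32, and deviate by 0.13 and 0.41.

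His2Av, the H2A variant of promoters and DNA breaks, was at 13.8 and 17.6 RPKM in Bully 25C against 9.32 and 12.5 RPKM in CantonS 25C. These groups did not overlap, as for 31.3% of all genes in this direction, and the difference of 0.51 (SE 0.17, unadjusted p = 0.0171, adjusted p = 0.180) did not pass. At 19C the lines overlapped, at 13.9 and 12.9 RPKM in Bully and 13.7 and 13.9 RPKM in CantonS. The difference there was -0.04 (SE 0.17, 95% interval -0.43 to 0.35), and turned to 0.04 after median-of-ratios rescaling and 0.06 after quantile normalization. It was 0.20 with the length trend removed, where the Bully libraries lay above those of CantonS without overlap. In CantonS His2Av was at 9.32 and 12.5 RPKM at 25C and 13.7 and 13.9 RPKM at 19C (-0.34, SE 0.17, adjusted p = 0.211), and these groups overlapped after either rescaling and with the length trend removed. Its interaction was 0.55 (SE 0.24, adjusted p = 0.218).

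As a group, the 4 variants had a median line difference of 0.42 at 25C and -0.51 at 19C, beside medians of 0.05 and -0.05 over all tested genes. The variant medians were smaller in other fits, at 0.29 for 25C and -0.22 for 19C after quantile normalization, and 0.26 and -0.22 with the length trend removed. The interaction was positive in 4 of 4 variants, with a median of 0.69 (0.37 with the length trend removed, 0.32 after quantile normalization), and in 60.8% of all genes, with a median of 0.12. It stayed positive in each variant under every alternative and without any library, with lowest values of 0.72 for His3.3A, 0.24 for His4r, 0.19 for His3.3B and 0.16 for His2Av. By limma 0 of the 4 interactions were called, and 2, His3.3A and His4r, had an unadjusted p below 0.05, as did 23.8% of all genes. For temperature averaged over the lines, 0 of 4 were called, with 0 at an unadjusted p below 0.05. Of all genes 0.0825% were called (0.0118% higher and 0.0708% lower), and 11.9% had an unadjusted p below 0.05. The same counts of variants, 0 and 0, held for the line average. It called 8.79% of all genes (4.38% higher and 4.41% lower), with 23.4% at an unadjusted p below 0.05.

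Genes that load, process or modify histones were examined beside them from lists of 8 to 47 members, and the percentages of all genes called are those given above. Among 31 tested histone chaperones and exchange factors, 1 rose and 0 fell in Bully at 25C, and 0 were called at 19C. At an unadjusted p below 0.05 there were 5 of the 31 at 19C, where 31% of all genes passed that limit. The riser was Nlp, a nucleoplasmin-like chaperone that binds core histones. Nlp was at 23.9 and 31.8 RPKM in Bully 25C, against 14.5 and 13.7 RPKM in CantonS 25C (log2 difference 0.94, SE 0.16, adjusted p = 0.0162). It also rose in the average over temperatures (0.63, SE 0.11, adjusted p = 0.00960). Its 25C call did not hold in a fit of the compared groups alone (adjusted p = 0.0527), nor when Bully 25C b (0.103) or either of CantonS 25C a (0.0891) and b (0.0652) was left out. The call in the average did not hold without Bully 19C a (adjusted p = 0.05003). With CantonS 19C a left out, 5 of the list and 23.5% of all genes were called at 19C. The list median was 0.09 at 25C, -0.02 at 19C and 0.30 in the interaction. Nap1, a chaperone of H2A and H2B, was the most abundant of the list, with a mean of 103 RPKM.

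The factors of histone mRNA 3′ end processing and of the histone locus body, the nuclear site of repeat transcription, were at 9.68 RPKM or less. Of the 16 genes 12 passed the filter, and limma called 0 in each of the 7 comparisons. At most 1 had an unadjusted p below 0.05 in a comparison, a limit that 3.21% to 31.9% of all genes passed. Slbp, which binds the stem-loop of replication-dependent histone mRNA, averaged 2.01 RPKM, with 1.69 to 2.50 RPKM over the libraries. The locus body factor mxc was at 0.691 to 1.12 RPKM, and Lsm11, a protein of the U7 particle that trims histone mRNA, averaged 1.63 RPKM. The U7 RNA itself (snRNA:U7) was listed at 0 in 6 libraries and was at 0.245 RPKM in Bully 19C a and 0.156 RPKM in CantonS 25C b.

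Of 47 genes of DNA replication and S phase, 14 passed the filter and 28 stayed below 1 RPKM in all libraries. Those tested gave 0 rises and 1 fall in Bully at each temperature. The fall was in Psf2, a subunit of the GINS complex of the replicative helicase. Psf2 was at 1.30 and 0.983 RPKM in Bully 25C, against 2.55 and 3.07 RPKM in CantonS 25C (-1.01, SE 0.15, adjusted p = 0.0110). At 19C it was at 1.30 and 1.11 RPKM in Bully, against 3.69 and 4.33 RPKM in CantonS (-1.41, SE 0.15, adjusted p = 0.00167). Leaving out Bully 25C b (adjusted p = 0.0938) or CantonS 25C b (0.0579) ended the call at 25C, and no single library ended that at 19C. At 19C 2 of the list were called without any one of the CantonS libraries. In CantonS geminin, which restrains replication licensing, fell at 25C, to 2.14 and 2.33 RPKM, against 3.46 and 3.56 RPKM at 19C (-0.55, SE 0.13, adjusted p = 0.0492), a call lost in 5 alternatives and without any library but CantonS 19C a. With the length trend removed the geminin difference was -0.21.

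Of 8 genes of the centromere and kinetochore only 2 were tested. Mis12, a kinetochore subunit, was at 1.19 and 1.23 RPKM in Bully 25C against 2.36 and 3.14 RPKM in CantonS 25C (-0.91, SE 0.16, adjusted p = 0.02002). It was at 1.53 and 1.27 RPKM in Bully 19C against 2.80 and 3.43 RPKM in CantonS 19C (-0.93, SE 0.16, adjusted p = 0.0115). Its 25C call ended without the filter (adjusted p = 0.0589) and when either Bully 25C library (up to 0.126) or CantonS 25C b (0.0726) was left out. Its 19C call ended when either Bully 19C library was left out (up to 0.104), and its 19C difference was -0.56 with the length trend removed. The gene of the centromeric H3 variant, cid, was at most 0.0293 RPKM and was listed at 0 in CantonS 19C a and CantonS 25C a.

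The list of histone modifying enzymes also holds proteins that are not enzymes, among them Pc, esc, Su(z)12 and Caf1. Among its 35 tested members, limma called 0 between the lines at 25C and 0 at 19C. At an unadjusted p below 0.05 there were 3 and 7, a limit that 16.9% and 31% of all genes passed. Their median difference at 19C was 0.15, opposite in sign to that of the variants. In CantonS 19C b, genes over 5 kb deviated by -0.35 and genes under 1 kb by 0.41. The part of gene length in this contrast of signs was not tested. In CantonS 1 fell at 25C, the deacetylase gene Hdac3, at 4.40 and 4.91 RPKM against 6.80 and 6.80 RPKM at 19C (-0.50, SE 0.11, adjusted p = 0.0447), a call lost in 5 alternatives, both rescalings among them. It was also lost in 6 of the 8 fits without a single library (adjusted p up to 0.235), and the difference was -0.28 with the length trend removed. With CantonS 19C a left out, which leaves CantonS 19C b alone in its group, 10 of the list were called at 19C and 13 in CantonS, in fits that called 23.5% and 26.7% of all genes.

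**Figure D5:**
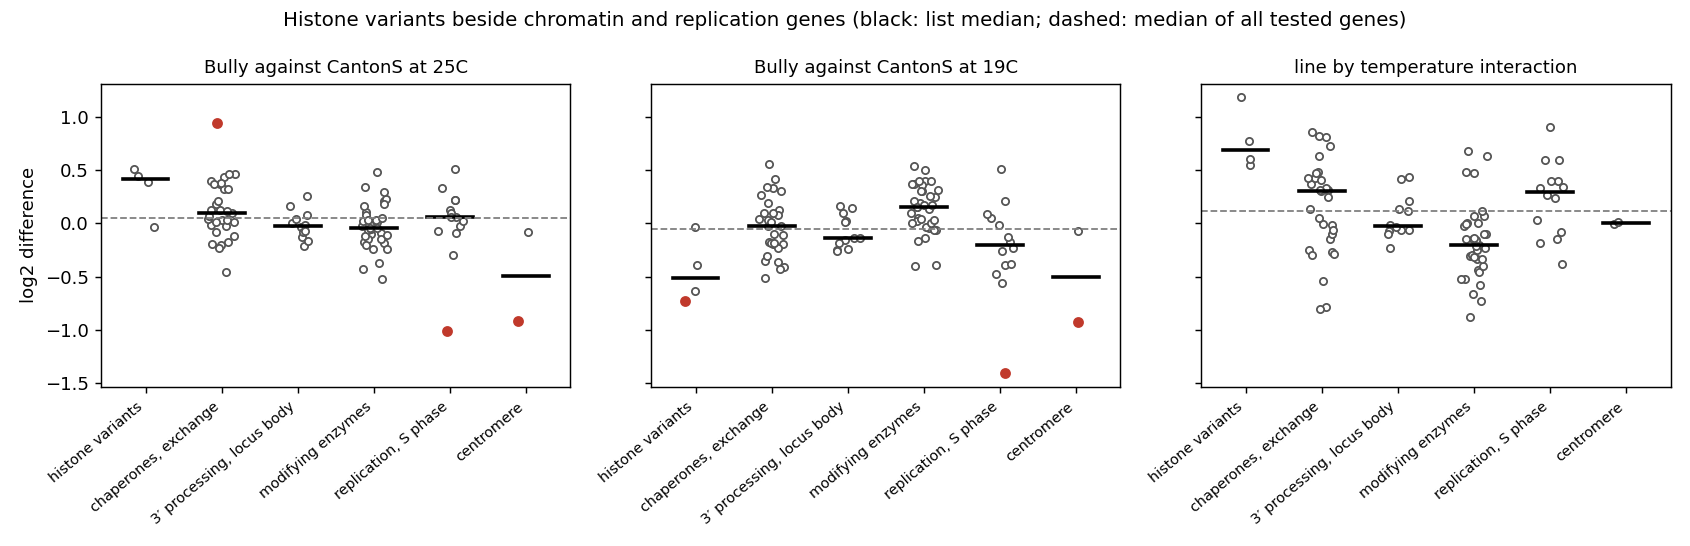
Log2 differences of the histone variants and of the tested members of the chaperone, 3′ processing, modifying enzyme, replication and centromere lists in both line comparisons and the interaction (red where the adjusted p was below 0.05). Black bars are list medians and the dashed line is the median of all tested genes; the variants have medians of 0.42, -0.51 and 0.69.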

How the data were processed

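The authors deposited a table of RPKM per gene for 8 libraries. Per the submitters' processing notes, TopHat2 2.0.4 and edgeR 3.8.6 were used, on the builds dm3 and BDGP5. How reads were counted, the annotation release and any rescaling of library sizes are not given in the sources used here. Columns carry group names without replicate numbers, so libraries were not paired. From the deposited values, limma 3.58.1 in R 4.3.3 was fitted to log2(RPKM + 0.5) of the 8480 genes averaging 1 RPKM or more (4 group means, 8 libraries, eBayes with trend, residual degrees of freedom 4, prior 4.474). All tests are two-sided, and p-values were adjusted by Benjamini-Hochberg per comparison (7 in all), with a threshold of 0.05. The pseudocount shrinks differences of low genes. The fit was tested on simulated data.

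Effective library sizes came from RPKM steps of genes with 1 annotated transcript, of which 80.2% to 82.1% of the low values were whole reads within 0.02. Gene lengths and older symbols came from the Ensembl BDGP6 annotation and RefSeq. The BDGP6 build differs from the authors', so no coordinates are given. Per library, the loess trend of deviations on log gene length was removed in an alternative added after the data were seen (8368 genes with a length). All variants and, of the lists, called members are named, up to 4 a list, by size of the test statistic; of the repeat copies the rule names the distinct row with the highest mean of a class (His4:CG33883 and the rows identical to it), and the other His4 rows above 0 were named after their values were seen, as were Nap1, Slbp, mxc, Lsm11, snRNA:U7, cid and the marker genes. Members and lists were chosen with earlier results of these data known. Replicates are described as independent biological samples. No sequence was used.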

Additional observations from a re-analysis of the deposited data

Results flagged for a closer look

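In 2 variants every Bully library lay above the CantonS libraries at 25C and below them at 19C, an ordering that 10.6% of all tested genes had. The interaction was 1.18 for His3.3A (limma, SE 0.20, adjusted p = 0.0921) and 0.77 for His4r (SE 0.26, adjusted p = 0.137), so by this test neither difference between the temperatures passed. The opposite ordering held for both genes as deposited and after median-of-ratios or quantile rescaling. With the length trend removed it held for His3.3A, and the His4r libraries overlapped at 19C.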

How the results depend on the processing

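No paired analysis was possible because the columns carry no replicate numbers. Fits without a library assume that the lone remaining sample of its group varies like the others. The count of histone rows called was 1 for 25C against 19C in CantonS. It was 0 without the filter, after median-of-ratios rescaling, after quantile normalization, with only the groups compared and with the length trend removed, and between 0 and 1 without single libraries. Without single libraries it was 0 to 2 for the lines at 19C (1 with all libraries), and 0 to 1 for the line average and for the interaction (0 with all libraries). At an adjusted p below 0.1 the interaction count was 1, at a limit that 280 of the 8480 genes tested passed. Counts of the other comparisons did not change.

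Small differences changed sign. For His2Av at 19C the value was 0.042 (median of ratios), 0.061 (quantile) and 0.20 (length trend removed), and -0.089 to 0.013 without single libraries. For temperature averaged over lines, His4r was at 0.040, 0.12 and 0.11 in those fits and -0.10 to 0.068 without single libraries. His2Av was at 0.049 with the length trend removed and -0.16 to 0.039 without single libraries, and His3.3B at -0.36 to 0.034. The ranges without single libraries were -0.084 to 0.087 for the line average of His4r and -0.13 to 0.062 for His3.3B at 25C. The cause was not tested.

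Without single libraries the counts over all genes ran from 77 to 398 at 25C (257 with all), 145 to 1996 at 19C (976), 350 to 1171 for the line average (745), 0 to 2261 for temperature in CantonS (544), 0 to 4 in Bully (2), 0 to 312 for temperature averaged over lines (7) and 0 to 903 for the interaction (0). The other fits gave 156 to 343, 665 to 1007, 467 to 1012, 0 to 644, 1 to 49, 3 to 13 and 0 to 1 in the same order.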

Other observations

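A histone gene that the naming rule does not reach was also low. CG3509, the row of the early embryonic linker histone BigH1, was at 0.0627 and 0.0185 RPKM in Bully 25C, 0.0327 and 0 RPKM in CantonS 25C, 0.0949 and 0.0973 RPKM in Bully 19C, and 0.0795 and 0.0264 RPKM in CantonS 19C. It was chosen after its values were seen.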
